A study of Homo sapiens with 6 samples.

Results

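NFE2L2 encodes NRF2, a transcription factor of the cap'n'collar family. KEAP1 is an adaptor that hands NRF2 to a cullin ubiquitin ligase for destruction, and oxidants or electrophiles that modify KEAP1 let NRF2 build up, pair with a small MAF protein and bind the antioxidant response element of its target genes. The targets listed here clear heme (HMOX1), reduce quinones (NQO1), make glutathione (GCLC and GCLM), keep peroxiredoxins and thioredoxins reduced (SRXN1 and TXNRD1) or act downstream of oxidative stress on growth (OSGIN1). Much of the control of NRF2 lies in the stability of its protein, which expression arrays do not measure. These 9 genes were taken by symbol from the probe annotation, and 8 of the 9 had a named probe. The list was chosen with earlier results of these data known. OSGIN1 had no probe named here. The 8 genes stand among 17225 genes and unnamed probes kept for testing.

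The arrays, 6 in all, came from HEK293t cells, an established human embryonic kidney line that carries a viral large T antigen. Lentiviral constructs gave 3 stable lines, 1 with a control shRNA (shCTL) and 1 for each of the shRNAs directed at the long noncoding RNA linc00598 (shlinc00598#2 and shlinc00598#3), all grown in the same medium, and each line was read on 2 Illumina HumanHT-12 v4 arrays numbered replicate 1 and replicate 2. Each shRNA was thus represented by 1 stable line, and nothing states whether its replicates were separate cultures, so p-values measure only the spread between these arrays. The comparisons asked whether the antioxidant genes differed between knockdown and control cells, between the knockdown lines, and between the replicates. No probe was named LINC00598, so the knockdown itself could not be checked.

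Between 20864 and 22134 probes were detected on an array, with 21584 to 22134 in replicate 1 and 20864 to 21135 in replicate 2. The neuronal and embryonic kidney markers NEFL, NEFM, INA and EYA1 were detected on all 6 arrays, whereas PAX2 and LHX1 were detected on none. Of 9 markers of other cell types, CD68, COL1A1 and ALB were detected on all 6 arrays, DCN on 2 and the other 5 on none. The authors deposited a table of intensities before normalization, which the sample descriptions tie to lines and replicates, and a processed table whose columns disagree with those descriptions for 4 of 6 samples. In the processed table, the column of shlinc00598#2 replicate 1 held the array described as shCTL replicate 2, that of shlinc00598#3 replicate 1 held shlinc00598#2 replicate 1, that of shCTL replicate 2 held shlinc00598#2 replicate 2, and that of shlinc00598#2 replicate 2 held shlinc00598#3 replicate 1. Taken in the order of the samples, the processed columns thus held the described arrays sorted by line, shCTL, then shlinc00598#2, then shlinc00598#3. Within each line replicate 1 came before replicate 2, whereas the samples themselves run by replicate. How this order arose was not tested, and which source names the arrays correctly was not settled. The values below follow the descriptions, and the values of the main comparisons under the processed table's own names are given after each.

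To show what the NRF2 dimer is known to read, the promoter windows of the members were searched for TGACNNNGC, the core of the antioxidant response element, on both strands. The motif shares its first letters with TGACTCA, a form of the AP-1 site, and none of the matches below overlapped TGACTCA or TGAGTCA. Windows of 250 bases before an annotated RefSeq start (GRCh38.p14) were at hand for 8 of the 9 genes. The set of windows used here held none for HMOX1. The core lay in 4 of the 11 windows of these 8 genes and in 3830 of all 35116 windows (10.9%). The 4 windows that hold it are printed 5′ to 3′ with the matches in capitals. They are KEAP1 at chr19:10502772-10503021 (minus strand), GCLM at chr1:93909431-93909680 (minus strand) and TXNRD1 at chr12:104215529-104215778 and chr12:104286782-104287031 (plus strand).
KEAP1: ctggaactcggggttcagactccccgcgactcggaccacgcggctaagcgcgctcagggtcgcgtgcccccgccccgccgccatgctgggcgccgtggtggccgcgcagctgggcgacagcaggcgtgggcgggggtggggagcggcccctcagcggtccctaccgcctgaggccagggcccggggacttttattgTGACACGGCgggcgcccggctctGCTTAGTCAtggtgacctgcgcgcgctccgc
GCLM: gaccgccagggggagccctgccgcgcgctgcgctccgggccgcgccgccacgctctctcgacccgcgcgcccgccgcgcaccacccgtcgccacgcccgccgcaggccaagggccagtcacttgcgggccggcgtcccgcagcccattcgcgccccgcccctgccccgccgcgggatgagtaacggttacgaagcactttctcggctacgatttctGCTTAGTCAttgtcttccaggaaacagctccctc
TXNRD1, first window: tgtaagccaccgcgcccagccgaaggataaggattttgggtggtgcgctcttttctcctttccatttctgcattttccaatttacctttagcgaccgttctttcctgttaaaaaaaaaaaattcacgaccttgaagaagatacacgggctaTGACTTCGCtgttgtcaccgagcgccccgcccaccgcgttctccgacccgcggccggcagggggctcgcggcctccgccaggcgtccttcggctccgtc
TXNRD1, second window: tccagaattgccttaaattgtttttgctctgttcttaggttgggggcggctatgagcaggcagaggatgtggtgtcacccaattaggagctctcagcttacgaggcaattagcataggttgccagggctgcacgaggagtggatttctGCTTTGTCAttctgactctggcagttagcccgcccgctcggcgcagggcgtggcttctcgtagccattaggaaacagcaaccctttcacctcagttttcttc
The GCLM match lay 26 to 34 bases before the annotated start, and the KEAP1 window held 2 matches. The TXNRD1 matches lay 91 to 99 and 94 to 102 bases before their starts. Another KEAP1 start and the windows of NFE2L2, GCLC, NQO1, SRXN1 and OSGIN1 held no match, which says only that these letters are not in these windows. The arrays did not show which start was used or whether NRF2 was bound.

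All 8 genes were detected on all 6 arrays. Quantile-normalized log2 intensities ran from 8.88 for NQO1 to 11.09 for TXNRD1, against a median of 6.46 for probes with a detection p above 0.5. Averaged over the arrays, the genes lay between the 55.4 and the 79.7 percentile of all genes and unnamed probes, NQO1 and GCLC in the lower part of that range and SRXN1 and TXNRD1 in the upper part. Levels of different probes were not compared further, since probes differ in brightness for the same amount of RNA. In bulk RNA, fewer cells that express a gene and less RNA per cell cannot be told apart.

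NFE2L2, the gene of the factor itself, had log2 intensities of 10.57 in shCTL, 10.87 in shlinc00598#2 and 10.76 in shlinc00598#3 in replicate 1, and of 10.89, 10.68 and 10.69 in the same order in replicate 2. The control array was thus the lowest of its replicate in one case and the highest in the other, and the lines overlapped. The mean of both knockdown lines was 0.25 above the control in replicate 1 and 0.20 below it in replicate 2 on the log2 scale. Over both replicates the difference was 0.02 (SE 0.14, limma adjusted p = 0.9998). A test of whether the knockdown difference itself differed between replicates gave -0.45 (SE 0.18, limma adjusted p = 0.803). By this test 0 of the 8 genes and 0% of all genes were called. Under the processed table's own names the mean difference was 0.18 and the knockdown difference differed between replicates by -0.25, neither called. Transcript levels of NFE2L2 therefore gave no difference between knockdown and control that exceeded the spread between arrays, with a 95% interval from -0.24 to 0.28 when the replicate number was fitted as a block.

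KEAP1, the inhibitor of NRF2, was at 9.68 in shCTL, 9.92 in shlinc00598#2 and 9.77 in shlinc00598#3 in replicate 1. In replicate 2 it was at 10.29, 10.49 and 10.40. Every replicate 2 array was above every replicate 1 array, and within a replicate the control was the lowest of the 3 lines. The differences of the knockdown arrays from the control array of their replicate were 0.24 and 0.21 for shlinc00598#2 and 0.09 and 0.11 for shlinc00598#3. A second KEAP1 probe gave nearly the same picture, with a replicate difference that departed from the first by -0.02 and a knockdown difference that departed from it by -0.0005 on the log2 scale, whereas the remaining KEAP1 probe was not detected on any array.

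HMOX1, which encodes the stress-induced heme oxygenase that breaks heme down to biliverdin, iron and carbon monoxide, had the widest range of the 8 genes, 1.16 on the log2 scale. Its intensities were 10.38, 10.71 and 10.45 for shCTL, shlinc00598#2 and shlinc00598#3 in replicate 1 and 9.55, 9.86 and 9.74 in replicate 2. The replicates did not overlap, with replicate 2 the lower one, opposite to KEAP1, and in both the control was the lowest line and shlinc00598#2 the highest. Against the control of the same replicate, shlinc00598#2 was higher by 0.33 and 0.31 and shlinc00598#3 by 0.07 and 0.19.

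NQO1, a quinone reductase that is widely used as a readout of NRF2 activity, was at 8.88, 9.16 and 9.40 in the 3 lines in replicate 1 and at 9.28, 9.19 and 9.43 in replicate 2. The low value of shCTL replicate 1 stood apart from the other 5 arrays, and shlinc00598#3 was the highest line in both replicates. The spread between replicates was an SD of 0.29 in shCTL and of 0.02 in each knockdown line (n = 2 arrays). A second NQO1 probe was not detected on any array.

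Glutamate cysteine ligase, the first enzyme of glutathione synthesis, is built from a catalytic subunit (GCLC) and a modifier subunit (GCLM), and the subunits differed in how they varied. GCLC was at 9.10, 9.26 and 9.22 in replicate 1 and at 9.30, 9.33 and 9.38 in replicate 2, in the order shCTL, shlinc00598#2 and shlinc00598#3. GCLM was at 10.29, 10.38 and 10.33 in replicate 1 and at 10.83, 10.94 and 10.88 in replicate 2. For both subunits replicate 2 lay above replicate 1 without overlap, by a narrow margin for GCLC and a wide one for GCLM, and the control was the lowest line in each replicate. A second GCLM probe was much dimmer and disagreed in part, since shCTL was at 7.75 in both replicates while shlinc00598#2 and shlinc00598#3 were at 7.72 and 7.77 in replicate 1 and 8.16 and 8.30 in replicate 2. A second GCLC probe was not detected.

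SRXN1 encodes sulfiredoxin, which repairs overoxidized peroxiredoxins. It was at 10.81, 10.68 and 10.84 in replicate 1 and at 10.81, 10.96 and 11.04 in replicate 2. The control arrays were alike, and shlinc00598#2 lay below the control in replicate 1 and above it in replicate 2. TXNRD1, the cytosolic thioredoxin reductase, was at 10.99, 11.04 and 11.02 in replicate 1 and at 10.83, 11.09 and 10.93 in replicate 2. Its range was the narrowest of the 8 genes at 0.26, and the highest and lowest arrays both belonged to replicate 2. A second TXNRD1 probe departed from the first by -0.02 in the knockdown difference and by -0.07 in the replicate difference, but in replicate 1 its differences from the control were -0.050 for shlinc00598#2 and -0.0055 for shlinc00598#3.

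**Figure D1:**
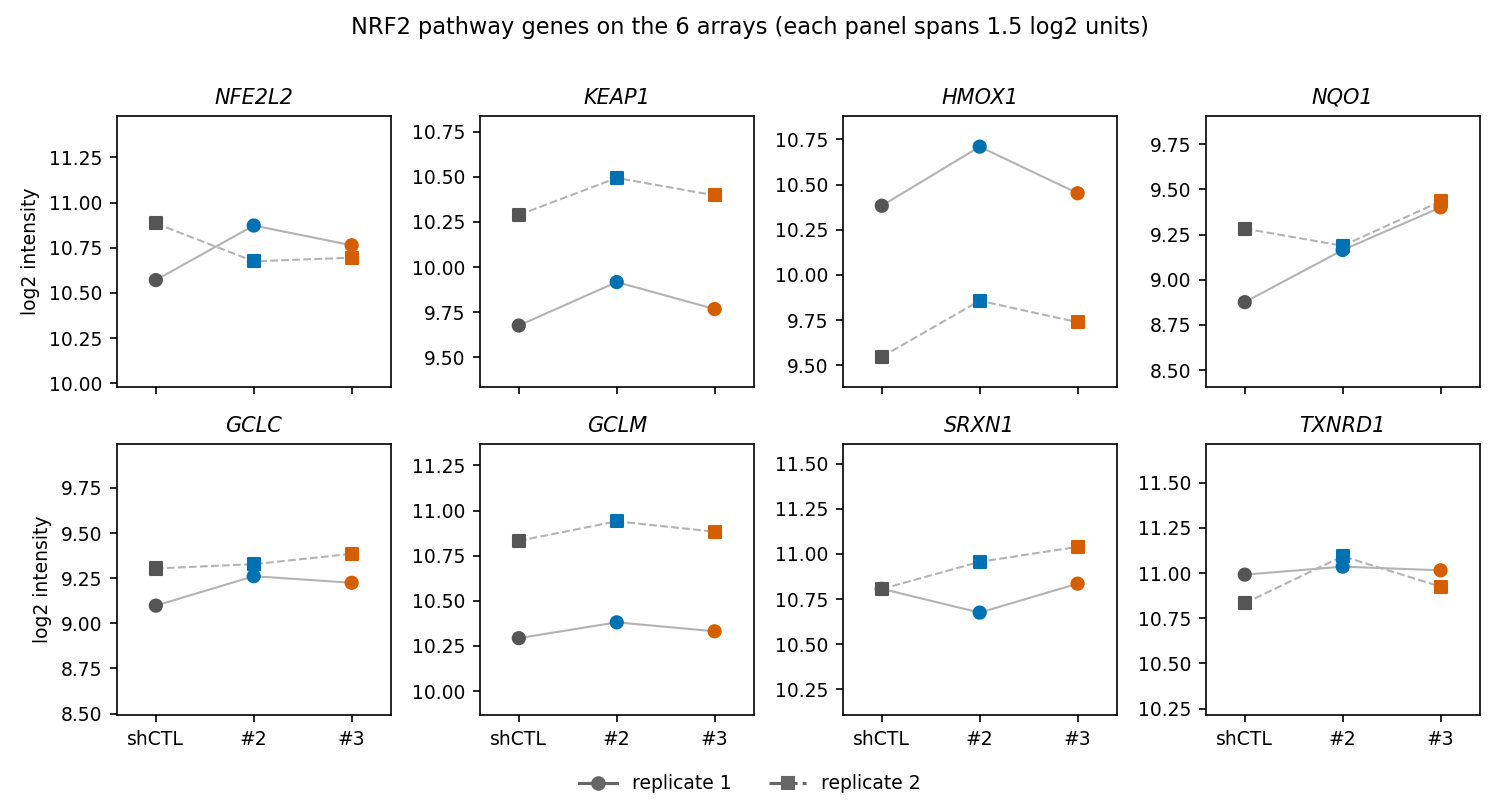
Log2 intensity (vertical axis) of the 8 genes in the 3 lines (horizontal axis), 1 point an array, with circles and a solid line for replicate 1 and squares and a dashed line for replicate 2. Each panel spans the same height, and HMOX1 lies lower in replicate 2 while KEAP1 and GCLM lie higher.

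Between knockdown and control cells the antioxidant genes differed by small amounts, none of which passed the test. On the log2 scale the mean of both knockdown lines lay above shCTL by 0.22 for HMOX1 (SE 0.37, fold 1.17), 0.22 for NQO1 (SE 0.15, fold 1.16) and 0.16 for KEAP1 (SE 0.29, fold 1.12). For GCLC, GCLM, SRXN1 and TXNRD1 the differences lay between 0.07 and 0.11. In this fit 0 of the 8 genes and 0% of the 17225 genes and unnamed probes were called, with a limma adjusted p of 0.9998 for each of the 8, and 329 of all genes but 0 of the 8 had an unadjusted p under 0.05. With the replicate number as a block, 0 of the 8 genes were called against 0.00581% of all genes. HMOX1 had the smallest p among them (SE 0.09, 95% interval 0.02 to 0.43, limma adjusted p = 0.322). An unadjusted p under 0.05 in this fit was reached by 1 of the 8 genes and by 13.7% of all genes. The intervals of the other 7 genes in the blocked fit included 0, and that of NQO1 reached 0.46. Without shCTL replicate 1, the array that was low for NQO1, its difference was 0.013, and without shCTL replicate 2 it was 0.42.

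The directions were more alike than the sizes. KEAP1, HMOX1, GCLC, GCLM and TXNRD1, 5 of the 8 genes, were higher in each knockdown array than in the shCTL array of the same replicate, that is in all 4 within-replicate comparisons, where 15.5% of all genes were. None of the 8 was lower in all 4, where 16.1% of all genes were. In replicate 1 alone 7 of the 8 genes were higher in both knockdown lines (36.1% of all genes), all but SRXN1, and in replicate 2 alone 6 of the 8 were (34.6% of all genes), all but NFE2L2 and NQO1. The second probes of GCLM and TXNRD1 were not higher in all 4, and with the mean of kept probes 4 of the 8 genes were. The 4 comparisons share 2 control arrays, so they do not count as independent. The median difference of the 8 genes was 0.10, beside -0.0005 for all genes. Under the processed table's own sample names, 2 of the 8 genes were higher in all 4 comparisons, where 6.08% of all genes were. These were NFE2L2 and NQO1, so none of the 5 genes named above kept the pattern. The mean differences became -0.0083 for HMOX1, 0.29 for NQO1, 0.0077 for KEAP1, 0.081 for GCLC, -0.010 for GCLM, -0.043 for SRXN1 and -0.090 for TXNRD1.

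The study took a fold of 1.4 as its criterion, and no member reached it in the mean of either line. In both lines at once, 0 of the 8 genes were at least 1.4-fold higher or lower, where 0.343% of all genes were. The 4 knockdown arrays overlapped the 2 control arrays for all 8 genes, while for 10.7% of all genes they did not.

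**Figure D2:**
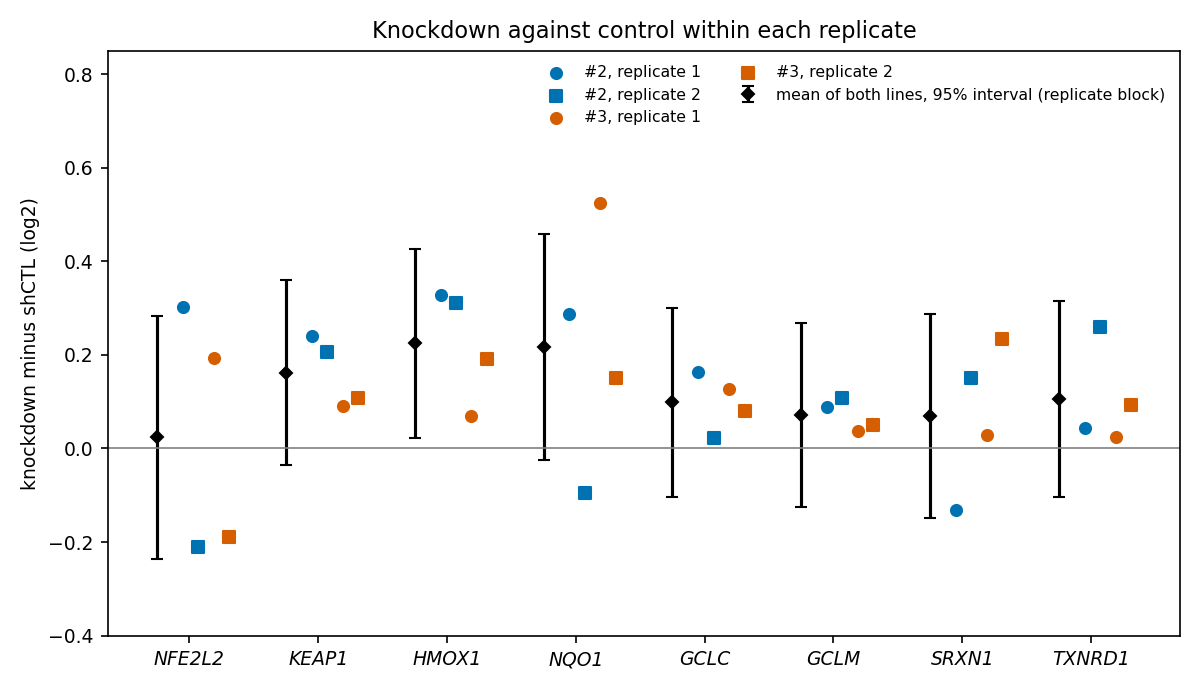
Differences of each knockdown array from the shCTL array of the same replicate (log2, vertical axis) for the 8 genes (horizontal axis), in blue for shlinc00598#2 and orange for shlinc00598#3, with circles for replicate 1 and squares for replicate 2. Black diamonds give the mean of both lines with its 95% interval in the blocked fit, and the interval of HMOX1 alone stays above 0.

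The lines were also compared with the control singly. In shlinc00598#2, HMOX1 differed most from the control (0.32, SE 0.43, fold 1.25), followed by KEAP1 (0.22), whereas NQO1 was at 0.10. In shlinc00598#3, NQO1 differed most (0.34, SE 0.17, fold 1.26), whereas HMOX1 was at 0.13 and KEAP1 at 0.10. No gene was called in either line with no block (0% of all genes in each), and with the block 0 of the 8 were called in each, where 0.0174% of all genes were called in shlinc00598#2 and 0.0232% in shlinc00598#3. The blocked values came to an unadjusted limma p of 0.013 and an adjusted p of 0.247 for HMOX1 in shlinc00598#2, and of 0.0227 and 0.349 for NQO1 in shlinc00598#3. In the same fits 13.1% and 11.7% of all genes had an unadjusted p under 0.05. Without shCTL replicate 1 the NQO1 difference of shlinc00598#3 was 0.13, and without shCTL replicate 2 it was 0.54. Under the processed table's own names shlinc00598#2 differed from the control by 0.31 for NQO1, -0.12 for HMOX1 and -0.057 for KEAP1, and shlinc00598#3 by 0.27, 0.10 and 0.072, so that NQO1 had the largest value of these 3 genes in both lines.

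Set against each other, shlinc00598#3 minus shlinc00598#2 was -0.19 for HMOX1 (SE 0.43) and 0.24 for NQO1 (SE 0.17). With the block the SE was 0.10 for HMOX1 (limma adjusted p = 0.647) and 0.12 for NQO1 (limma adjusted p = 0.626). Neither was called in either fit, nor was any other of the 8 genes, with 0% of all genes called without the block and 0% with it. The comparisons of both lines share the control arrays. Under the processed table's own names these differences were 0.23 for HMOX1 and -0.043 for NQO1.

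The replicates differed more than the lines. HMOX1 fell in replicate 2 by 0.80 on the log2 scale (SE 0.08, fold 1.74, limma adjusted p = 0.000193), and KEAP1 and GCLM rose, KEAP1 by 0.61 (SE 0.08, fold 1.52, limma adjusted p = 0.000625) and GCLM by 0.55 (SE 0.08, fold 1.46, limma adjusted p = 0.000987). Thus 3 of the 8 genes changed, where 36.6% of all genes did, 2 of them upward (18.8% of all genes) and 1 downward (17.8%). By the brightest probe of each gene the difference was alike in the 3 lines. It ran from -0.85 to -0.71 for HMOX1, from 0.58 to 0.63 for KEAP1 and from 0.54 to 0.56 for GCLM. The second, dimmer GCLM probe gave a difference of 0.33 that was not alike in the lines, with shCTL at 7.75 in both replicates. NQO1, GCLC and SRXN1 had differences of 0.15, 0.14 and 0.16, and NFE2L2 and TXNRD1 of 0.02 and -0.06, none of which passed the test. For NQO1 the difference was 0.41 in shCTL and 0.02 and 0.03 in the knockdown lines.

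Between replicates, 4 of the 8 genes (KEAP1, HMOX1, GCLC and GCLM) did not overlap, where 44.0% of all genes did not, so the members varied about as often as other genes. By the sample descriptions all arrays lay on 1 BeadChip, with replicate 1 at the first 3 positions and replicate 2 at the next 3, so position and replicate cannot be told apart. Of the 4 HEK293 markers that were kept, NEFM and EYA1 also fell in replicate 2, and 1 of the 3 kept markers of other cell types, COL1A1, did. Their part in the result was not tested. Under the processed table's own sample names the replicate differences were 0.26 for KEAP1, -0.20 for HMOX1 and 0.22 for GCLM, and 0 of the 8 genes and 0 of all genes were called.

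**Figure D3:**
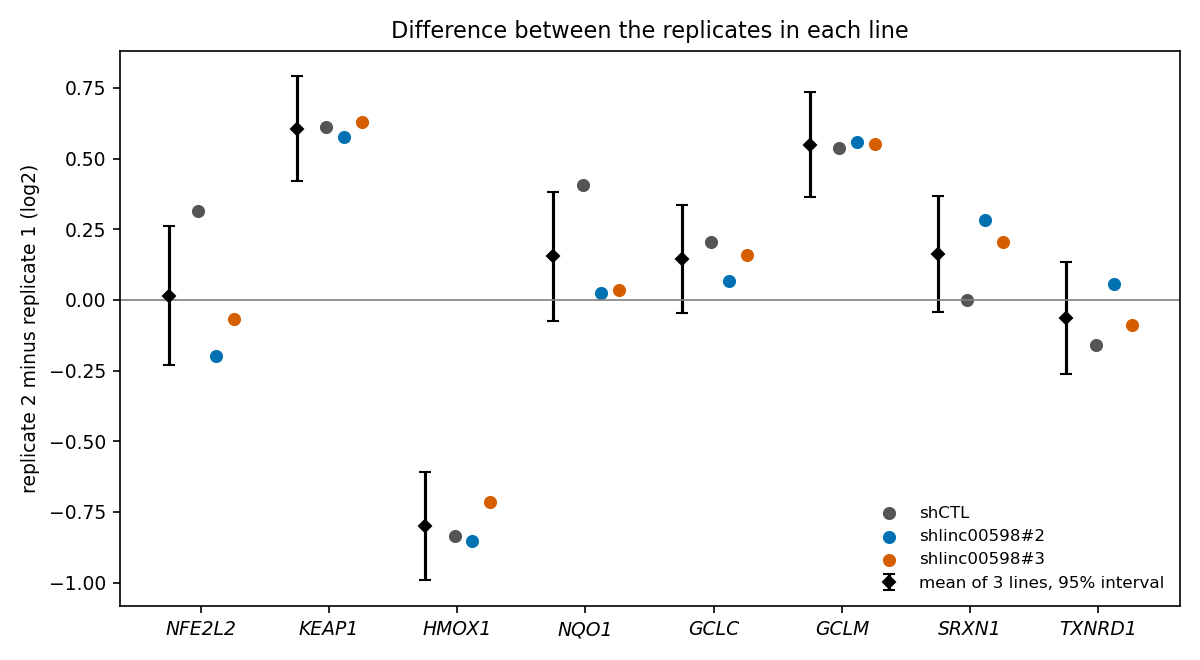
Replicate 2 minus replicate 1 (log2, vertical axis) for the 8 genes (horizontal axis), with 1 coloured point for each line and a black diamond for the mean of the 3 lines with its 95% interval. Each gene is read by its brightest kept probe, by which HMOX1 lies below 0 and KEAP1 and GCLM above 0 in all 3 lines.

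The members fell into patterns that crossed their roles. After subtraction of each gene's own mean, KEAP1 and GCLM, inhibitor and target, were the closest pair, with a root mean square difference of 0.06 over the 6 arrays, and KEAP1 and HMOX1 were the farthest apart at 0.71. GCLC and GCLM, the subunits of 1 enzyme, differed by 0.21. By the same measure the named genes nearest to HMOX1 among all genes were KRT10, a keratin (0.05), OGFOD1, a prolyl hydroxylase (0.06), and FLAD1, an enzyme of flavin cofactor synthesis (0.07). These are descriptions over 6 arrays that are dominated by the difference between replicates.

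The wider antioxidant system was read through 9 further lists with 101 genes, of which 92 had a named probe and 72 were kept. Knockdown called 0 of the 72 with or without the replicate block, and none was at least 1.4-fold different in both lines. In all 4 within-replicate comparisons 7 of the 72 were higher (15.5% of all genes) and 15 lower (16.1% of all genes), and their median difference was -0.03. Between replicates, 18 rose and 19 fell in replicate 2, or 51.4% of the 72, where 36.6% of all genes changed. Since the lists were chosen with earlier results of these data known, these shares are a description only. Under the processed table's own sample names 0 of all genes were called between replicates.

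Among the partners and regulators of NRF2, 8 of 11 listed genes were kept. MAFK, a listed small MAF partner of NRF2, had no named probe. The transcripts of MAFF and MAFG, which encode such partners too, were lower in replicate 2. Their log2 differences were -0.92 (limma adjusted p = 0.00073) and -0.56 (limma adjusted p = 0.00106). In this list 3 of 8 genes rose and 3 fell (18.8% and 17.8% of all genes). MAFF lay between 6.88 and 8.33 and was detected on 1 of the 3 replicate 2 arrays, so the size of its difference rests on values at the background. BTRC, a ubiquitin ligase adaptor that can target NRF2, and NFE2L1, a relative of NRF2, had knockdown differences of -0.20 and -0.16, which did not pass the test.

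Of 13 kept genes of glutathione supply and use, 6 fell and 1 rose in replicate 2, where 17.8% of all genes fell and 18.8% rose. SLC7A11 and SLC3A2, which together form the cystine transporter that supplies cysteine for glutathione, differed by -1.12 (limma adjusted p = 0.000245) and -1.04 (limma adjusted p = 0.000747), opposite in sign to GCLM. SLC7A11 was detected on 1 of the 3 replicate 2 arrays, so the size of its difference rests on values at the background. In the knockdown, GLRX, a glutaredoxin, was at -0.30 and GPX8, a peroxidase of the endoplasmic reticulum, at -0.20, neither past the test. Glutathione S-transferases, which couple glutathione to electrophiles, were lower in all 4 within-replicate comparisons for 8 of 14 genes (16.1% of all genes) and higher for 1 (15.5% of all genes), with a median of -0.18. The 8 include GSTP1 (-0.20), GSTM4 (-0.27, detection p up to 0.048, near the limit) and GSTO2 (-0.29), and none passed the test. The number was 5 of 14 with median scaling, where 10.1% of all genes were lower in all 4, and 0 of 14 under the processed table's own names, where 5.87% were, and probes of the GSTM genes may read their near-identical copies. GSTO2 and GSTM3 fell in replicate 2 by 1.26 (limma adjusted p = 0.000114) and 0.50 (limma adjusted p = 0.00163).

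The largest replicate difference of the lists belonged to the thioredoxin system. TXNIP, which binds and inhibits thioredoxin, was at 13.28, 12.65 and 13.10 in replicate 1 and at 11.01, 10.13 and 10.24 in replicate 2, a difference of -2.55 (SE 0.11, limma adjusted p = 3.8e-06). Its knockdown difference was -0.62 (SE 1.14, limma adjusted p = 0.9998), with an adjusted p of 0.107 in limma with the block. TXNIP was lower in all 4 within-replicate comparisons, as were 16.1% of all genes, but not under the processed table's own names. PRDX1, a cytosolic peroxiredoxin, rose by 1.25 (limma adjusted p = 2.9e-05), and its values of 14.27 to 14.42 in replicate 2 stood clear of 13.06 to 13.14 in replicate 1. MSRA, a methionine sulfoxide reductase, and PRDX3, a mitochondrial peroxiredoxin, had knockdown differences of 0.30 and -0.17 with no call.

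Among enzymes that supply NADPH, IDH1 and PGD rose in replicate 2 by 1.12 (limma adjusted p = 7.4e-05) and 0.77 (limma adjusted p = 0.000223), whereas IDH2, the mitochondrial relative of IDH1, fell by 0.54 (limma adjusted p = 0.00165). The knockdown differences of IDH2 and ME1, the malic enzyme, were -0.37 and -0.10, which were not called. CBR1, a carbonyl reductase, rose in replicate 2 by 0.37 (limma adjusted p = 0.00912) and was higher in all 4 knockdown comparisons (0.23, not called), while ALDH3A1, an aldehyde dehydrogenase, was at 0.17 in the knockdown and UGDH, which makes UDP-glucuronate, at 0.24 between replicates, neither called.

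Of the heme and iron genes, TFRC, the transferrin receptor, rose in replicate 2 by 0.72 (limma adjusted p = 0.000338) and FECH, which inserts iron into heme, by 0.35 (limma adjusted p = 0.0118), opposite in sign to HMOX1. BLVRA, which reduces the biliverdin that HMOX1 forms, and SLC48A1, a heme transporter, had knockdown differences of -0.13 and -0.11, neither called. CAT and SOD2, which remove hydrogen peroxide and superoxide, rose in replicate 2 by 0.50 (limma adjusted p = 0.00397) and 0.30 (limma adjusted p = 0.0197), as did the efflux transporters ABCC5 by 0.40 (limma adjusted p = 0.0216) and ABCC4 by 0.36 (limma adjusted p = 0.00892). Their knockdown differences were -0.17, 0.17, 0.14 and 0.01, with no call.

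**Figure D4:**
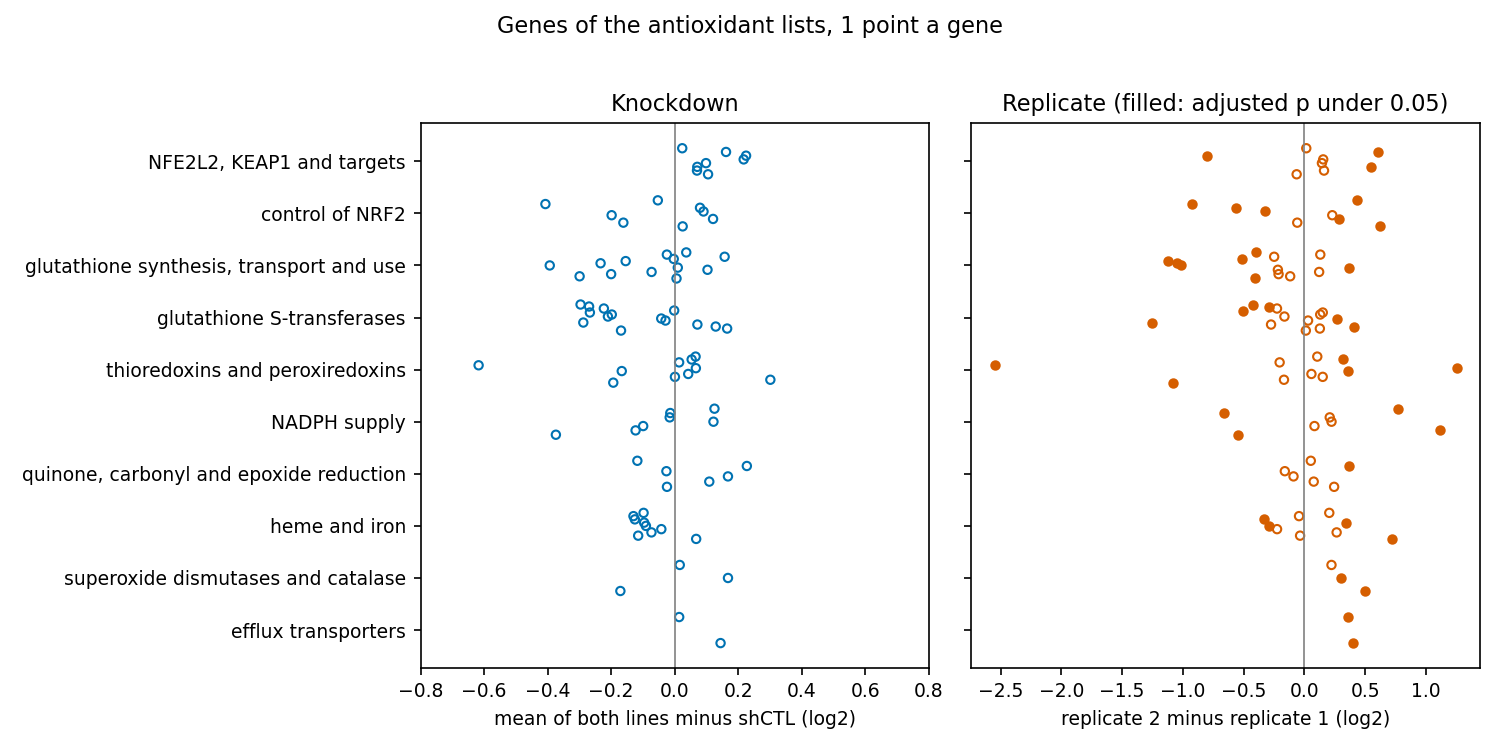
Log2 differences for the genes of the antioxidant lists (vertical axis, 1 point a gene), with the mean of both knockdown lines minus shCTL on the left and replicate 2 minus replicate 1 on the right, on axes of different width. Filled points passed the test, which 0 of the genes did in the knockdown comparison, and TXNIP (-2.55) and PRDX1 (1.25) mark the ends on the right.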

How the data were processed

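Total RNA from the 3 lines was hybridized to Illumina HumanHT-12 v4 arrays. The authors exported linear probe intensity values and a detection p-value per probe from GenomeStudio 2011.1. A second deposited table, with quantile-normalized log2 values, served as an alternative. From the unnormalized intensities, log2 values were computed after quantile normalization over the 6 arrays with no background correction, with limma 3.58.1 in R 4.3.3. The filter kept 21282 of 47321 probes, those that had both replicates of some line below a detection p of 0.05, and each gene was read by its brightest kept probe. Symbols came from the platform annotation, updated by gene ID (30113 probes with 1 symbol, 8 with several, 17200 with none).

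Contrasts of line means were fitted with lmFit and eBayes to all 6 arrays, with the replicate number as a block in an alternative. The replicate contrast had line as a factor, and the test of a knockdown difference between replicates pooled both knockdown lines. Adjusted p-values are Benjamini-Hochberg over 17225 genes and unnamed probes, with a threshold of 0.05, and the fits were tested on simulated data. The simulated arrays had independent noise, without the replicate shifts seen across many genes here, and larger changes than the members showed. Arrays with the same replicate number deviated together (correlation of replicate differences between lines 0.742, 0.760 and 0.827 across genes), so the numbers were taken to pair the arrays. Precision is limited by the small number of arrays.

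The members and lists were chosen with earlier results of these data known. Named genes are the members, for each other list up to 2 genes with the smallest p in the mean knockdown contrast and up to 2 in the replicate contrast, and the 3 genes nearest to the member with the widest range. Alternatives were neqc background correction (offset 16), median scaling, the processed values, other detection filters, the mean of kept probes and each array left out. COL1A1, NEFM and EYA1 were named after their values were seen.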

Additional observations from a re-analysis of the deposited data

Results flagged for a closer look

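The knockdown difference of NFE2L2 ran in opposite directions in the replicates. The mean of both lines minus shCTL was 0.247 on the log2 scale in replicate 1, with both knockdown arrays above the control, and -0.200 in replicate 2, with both below it. The test of the difference between replicates gave an unadjusted limma p of 0.0385 and an adjusted p of 0.803, so it did not pass. An unadjusted p under 0.05 was reached by 6.13% of all genes in this test.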

How the results depend on the processing

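No member was called in a comparison of lines under any alternative, and KEAP1, HMOX1 and GCLM kept their replicate calls except under the processed table's own sample names, where 0 members and 0 genes were called. Those names gave 0.26, -0.20 and 0.22 for these genes, and 2 members, NFE2L2 and NQO1, higher in all 4 comparisons. They also turned the mean knockdown difference of HMOX1 (-0.0083), GCLM (-0.010), SRXN1 (-0.043) and TXNRD1 (-0.090), that of shlinc00598#2 for HMOX1 (-0.12) and KEAP1 (-0.057), that between the lines for HMOX1 (0.23) and NQO1 (-0.043), and the replicate difference of NFE2L2 (-0.065) and TXNRD1 (0.058), with the same line values under the replicate block. The cause was not tested.

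Over all genes, the replicate block raised the calls from 0 to 1 for both lines together, to 3 for shlinc00598#2 and to 4 for shlinc00598#3, and no member call changed. With 1 array left out, the counts over all genes, with or without the block, ran from 0 to 249 for the mean of both lines, 0 to 302 for shlinc00598#2, 0 to 192 for shlinc00598#3, 0 to 185 between the lines and 4024 (without either shlinc00598#3 array) to 6596 between replicates. For the knockdown difference between replicates they ran from 0 to 10, with 11 under median scaling and 6 with no detection filter, and this test could not be fitted without a control array. The alternatives of this test, the counts over all 4 comparisons and the blocked fits of other values were chosen after seeing the data.

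Leaving out 1 array turned uncalled values, and the ranges for comparisons of lines take in fits with and without the replicate block. The mean knockdown difference ran from -0.20 to 0.25 for NFE2L2, -0.14 to 0.47 for KEAP1, -0.19 to 0.64 for HMOX1, -0.0046 to 0.20 for GCLC, -0.20 to 0.34 for GCLM and -0.052 to 0.19 for SRXN1. In shlinc00598#2 it ran from -0.083 to 0.53 for KEAP1, -0.11 to 0.75 for HMOX1 and -0.11 to 0.30 for NQO1, and in shlinc00598#3 from -0.21 to 0.41 for KEAP1 and -0.29 to 0.55 for HMOX1. HMOX1 ran from -0.61 to 0.24 between the lines, and NFE2L2 from -0.13 to 0.12 between replicates. Among comparisons of lines in the blocked fits, leaving out 1 array turned only the means of NFE2L2 and SRXN1 and NQO1 in shlinc00598#2. For KEAP1, HMOX1, GCLC and GCLM it did so only in unblocked fits, which then hold the difference between replicates. Without shCTL replicate 1 and without shCTL replicate 2, the blocked means were 0.16 and 0.17 for KEAP1, 0.25 and 0.20 for HMOX1, and 0.079 and 0.063 for GCLM. Median scaling shifted the median of all genes by -0.104 between the lines.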
